A study of Mus musculus with 2 samples.

Results

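Mir221 and Mir222 on the X chromosome and Mir191 and Mir425 on chromosome 9 are 2 pairs of microRNA genes, each pair lying on 1 strand with a short gap between the hairpins. Their counts were examined in aged mouse hippocampus together with Gm24083, a predicted gene on the other strand of Mir191. The 5 genes were taken by their symbols from the 2202 microRNA genes of the deposited tables. The rule that takes them uses no measured value, though it was written with earlier results of these data known. Of them 4, all but Gm24083, had at least 10 counts in both libraries, the limit used here for a detected gene, as did 384 genes in all.

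The series holds 1 group of 2 microRNA-seq libraries, replicate 1 and replicate 2. Both were made from tissue labelled as a layer of the hippocampus of male B6CASTF1/J mice, hybrids of the C57BL/6 and CAST backgrounds, aged 18 to 20 months. The labels number them as separate biological replicates with separate tissue entries but with the same donor entry. Nothing states that the tissue came from different animals, so the spread between them may be technical. No treatment, age or sex was compared, and the tests below compare these libraries. In bulk tissue, fewer cells of a type and less RNA per cell cannot be told apart.

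A microRNA is cut from the hairpin of a longer transcript and guides silencing of messenger RNAs that pair with its seed, the bases from position 2 to 8. Neighbouring hairpins on 1 strand are often cut from the same transcript, after which each product has its own maturation and stability. miR-221 and miR-222 are known for repressing the cell-cycle inhibitor p27Kip1 and the receptor Kit, and are abundant in cells of vessel walls. miR-191 is widely expressed and often serves as a reference in quantitative PCR, and it has been linked to remodelling of dendritic spines in neurons. miR-425 is best known, in humans, for targeting the messenger RNA of atrial natriuretic peptide.

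Mir221 (ENSMUSG00000065422.1) lies on the minus strand of chromosome X in mm10, at chrX:19146294-19146388, and Mir222 (ENSMUSG00000065471.1) at chrX:19146893-19146971. Mir222 is therefore the upstream hairpin, 504 nt before Mir221. No other annotated gene overlaps either of them, and the nearest ones are Gm14636, 10.009 kb away, and Gm5383, 203.065 kb away. Mir191 (ENSMUSG00000105497.1) lies on the plus strand at chr9:108568319-108568392, and Mir425 (ENSMUSG00000065579.1) follows 384 nt downstream at chr9:108568777-108568861. Both overlap an exon of the long intergenic non-coding RNA 4833445I07Rik on the same strand. The protein-coding gene Dalrd3 begins 1024 nt beyond Mir425 in this annotation. Another protein-coding gene, Ndufaf3 on the minus strand, lies 884 nt from the pair. Gm24083 (ENSMUSG00000092915.1) lies on the minus strand at chr9:108568295-108568414. It covers all 74 nt of Mir191 and extends 24 nt past one end of it and 22 nt past the other, so it stops 362 nt short of Mir425.

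**Figure D1:**
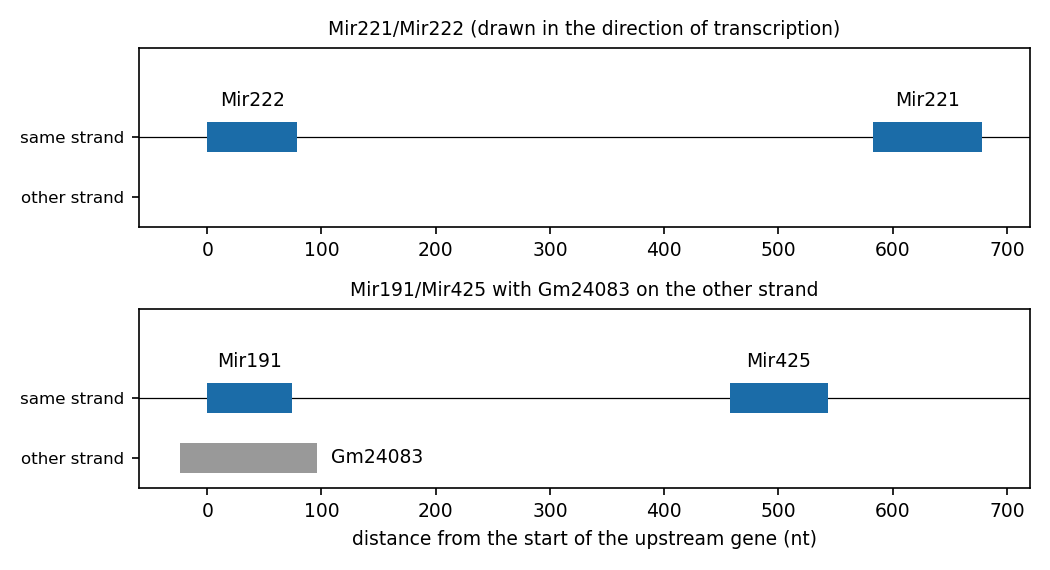
Maps to scale of both gene pairs in their direction of transcription, with distance in nucleotides from the start of the upstream gene on the horizontal axis. Blue bars are genes on the transcribed strand and the grey bar is Gm24083 on the other strand, which covers the whole of Mir191 and does not reach Mir425.

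The mature sequences show which members can act on the same targets. They are printed 5′ to 3′ from RefSeq (GRCm38.p6), in which 4 of the 5 genes have an entry, with the seed in capitals.
mmu-miR-221-3p: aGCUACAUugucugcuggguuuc
mmu-miR-222-3p: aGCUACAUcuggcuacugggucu
mmu-miR-221-5p: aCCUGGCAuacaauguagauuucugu
mmu-miR-191-5p: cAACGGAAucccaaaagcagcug
mmu-miR-191-3p: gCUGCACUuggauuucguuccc
mmu-miR-425-5p: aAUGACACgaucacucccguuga
mmu-miR-425-3p: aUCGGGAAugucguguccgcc

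miR-221-3p and miR-222-3p began with the same 8 bases and so had the same seed. Aligned over their whole length they matched at 19 of 24 columns (79.2%). Their hairpins matched at 62.5% of columns, with no shared run longer than 9 nt. miR-191-5p and miR-425-5p differed in the seed and matched at 9 of 24 columns (37.5%), and their hairpins at 51.2%, with no shared run longer than 5 nt. Among the annotated mouse microRNAs in the table, the seed of miR-221-3p and miR-222-3p also occurred in miR-1928, and that of miR-425-5p in miR-489-3p. Mir1928 and Mir489 had 0 counts in both libraries, so Mir221 and Mir222 supplied all counted reads of genes with that shared seed. A count of 0 allows up to 3 counts, which is 0.798 CPM in replicate 1 and 0.536 CPM in replicate 2, where CPM stands for a gene's sense reads per 1000000 sense reads assigned to microRNA genes. The tables give 1 count per gene and do not separate the arms of a hairpin.

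No mature sequence of the members occurred in the hairpin of another annotated gene. The longest run that Mir221, Mir222, Mir191 and Mir425 shared with any other hairpin was 11 to 13 nt. This matters because reads that mapped to several places, 51.5% of replicate 1 and 46.7% of replicate 2, were not assigned to genes. Of the 384 detected genes, 86 (22.4%) shared 20 nt or more with another hairpin, and none of the 4 members was among them. The hairpins had a GC content of 47.4% (Mir221), 54.4% (Mir222), 54.1% (Mir191) and 54.1% (Mir425), against a median of 51.3% over detected genes. Predicted folding energy per nucleotide was -0.45 kcal/mol for Mir221, -0.52 for Mir222, -0.47 for Mir191 and -0.37 for Mir425. Over detected genes the middle range, from the lower to the upper quartile, was -0.49 to -0.39, so Mir222 had a lower and Mir425 a higher predicted energy than that range.

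The 5 genes together held 2.55% of the sense counts of replicate 1 and 2.74% of those of replicate 2. Those sense counts numbered 3758318 in replicate 1 and 5598792 in replicate 2. Wilson 95% intervals on a share cover counting error only.

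Mir191 was the highest member, with 58052 counts in replicate 1 and 68414 in replicate 2. That is 15446 and 12219 CPM, ranks 14 and 16 of all genes, with a mean of 13833 ± 2282 CPM (SD, n = 2, as for the other means). Mir221 followed with 30239 counts in replicate 1 and 54030 in replicate 2, or 8046 and 9650 CPM (mean 8848 ± 1134). Its ranks were 24 and 22. These genes differed little in rank between the libraries.

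Mir222 had 6103 counts in replicate 1 and 26003 in replicate 2, or 1624 and 4644 CPM (mean 3134 ± 2136), and stood at ranks 67 and 44. Mir425 was the lowest detected member, with 1475 counts in replicate 1 and 4682 in replicate 2, or 392 and 836 CPM (mean 614 ± 314). Its ranks were 125 and 102. The order of levels was Mir191, Mir221, Mir222 and Mir425 in both libraries, and the ranges of neighbours in this order did not overlap. The detected gene at the median had 81.0 CPM in replicate 1 and 109.8 CPM in replicate 2, so all 4 members lay above it.

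**Figure D2:**
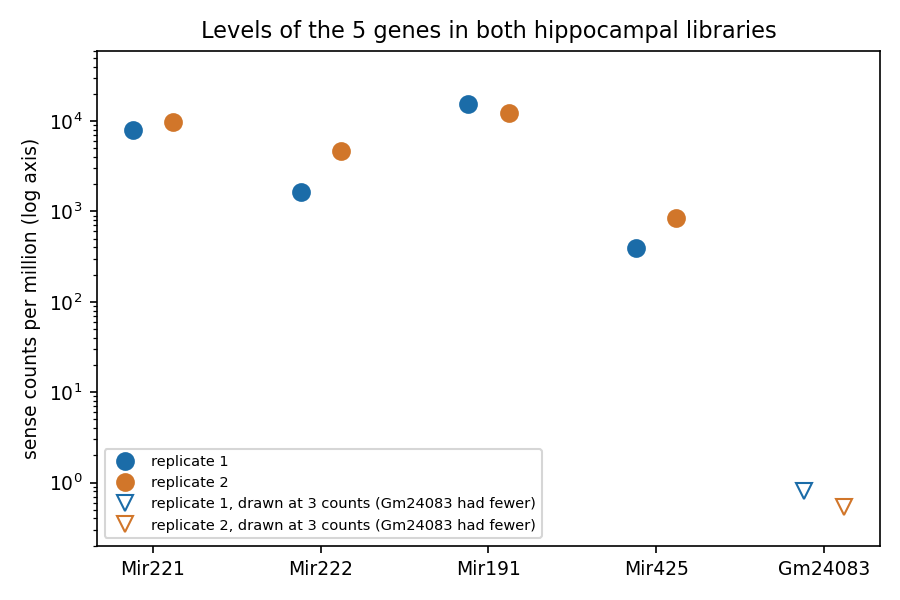
Sense CPM of the 5 genes on a log axis, 1 point per library. Mir191 (15446 and 12219), Mir221 (8046 and 9650), Mir222 (1624 and 4644) and Mir425 (392 and 836) keep their order in replicates 1 and 2; the open triangles for Gm24083 stand at 3 counts, above its counts of 0 and 1.

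Gm24083 had no sense count in replicate 1 and 1 in replicate 2. The 0 in replicate 1 allows up to 3 counts, and both values are below the 10 counts used here for a detected gene. By that limit its own strand was not detected, though replicate 2 had 1 read. The labels give the libraries a size range under 30, so they show short RNAs cut from a gene and not its full transcript. Its opposite-strand counts were 58052 in replicate 1 and 68414 in replicate 2, equal to the sense counts of Mir191 in each library. Mir191 had 0 and 1 opposite-strand counts, equal to the sense counts of Gm24083. The sequence of Gm24083 from GENCODE M21 shows the overlap, with the reverse complement of the Mir191 hairpin in capitals. The Mir191 hairpin from RefSeq has its mature arms in capitals.
Gm24083: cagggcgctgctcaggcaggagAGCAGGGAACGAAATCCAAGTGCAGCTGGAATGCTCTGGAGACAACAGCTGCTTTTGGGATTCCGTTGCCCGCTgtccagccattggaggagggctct
Mir191 hairpin: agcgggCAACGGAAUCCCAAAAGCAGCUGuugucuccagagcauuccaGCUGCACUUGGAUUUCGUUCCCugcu

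Without strand, these reads lie in both genes and were left unassigned, so the unstranded column gave 0 counts for Mir191 and 0 for Gm24083 in both libraries. The reads of Mir191 alone made up 20.2% of the reads that were ambiguous without strand in replicate 1 and 16.1% in replicate 2. Over the whole annotation, 32 pairs of microRNA genes overlapped on opposite strands. They included 26 detected genes, of which 23 had an unstranded count of 0 in both libraries. Mir191 was the second most abundant of the 26 by mean CPM, after Mirlet7e. Mir221, Mir222 and Mir425 have no such partner, and their unstranded counts equalled their sense counts.

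**Figure D3:**
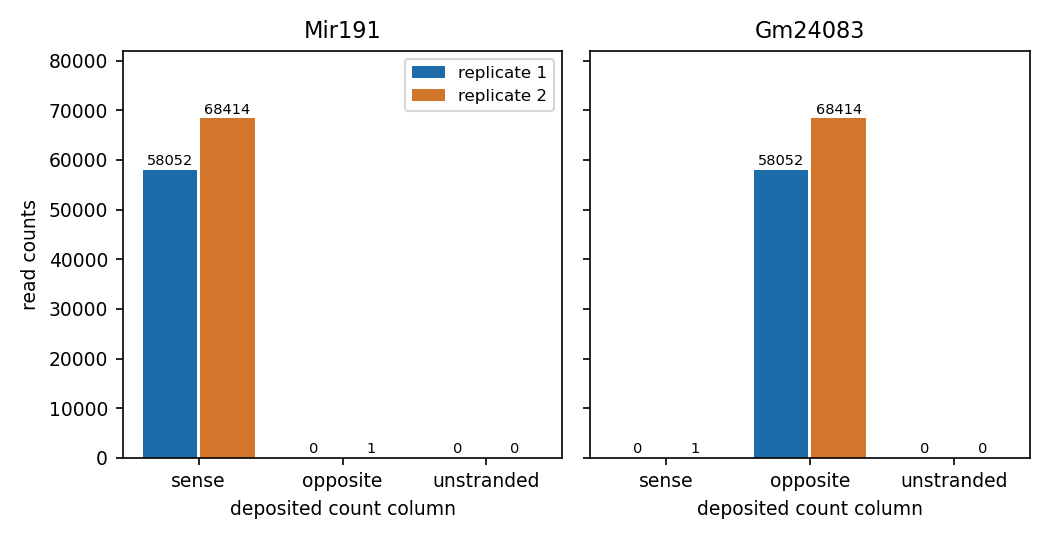
Read counts of Mir191 and Gm24083 in the sense, opposite-strand and unstranded columns of the deposited tables, 1 bar per library with its count above it. The 58052 and 68414 sense counts of Mir191 reappear as opposite-strand counts of Gm24083, and both genes stand at 0 in the unstranded column.

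Within each pair 1 gene predominated in both libraries. Both genes of a pair were read in the same library, so their ratio does not depend on how libraries are scaled. It is a ratio of reads, and whether both sequences were captured equally as reads was not tested. The ratios are of counts per gene, since 1 read can span a whole mature microRNA and the mature forms of the members had 21 to 26 nt. Mir221 held 83.2% of the counts of Mir221 and Mir222 in replicate 1 (Wilson 95% interval 82.8 to 83.6%) and 67.5% in replicate 2 (67.2 to 67.8%). It was thus 4.95-fold above Mir222 in replicate 1 and 2.08-fold above it in replicate 2. Per nucleotide of the annotated hairpin the ratios were 4.12 and 1.73. The direction was the same in 2 of 2 libraries, but an exact sign-flip test of 2 libraries cannot go below p = 0.5, so no p-value is given for it.

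Mir191 held 97.5% of the counts of Mir191 and Mir425 in replicate 1 (interval 97.4 to 97.6%) and 93.6% in replicate 2 (93.4 to 93.8%). It was 39.4-fold above Mir425 in replicate 1 and 14.6-fold above it in replicate 2, or 45.2 and 16.8 per nucleotide of hairpin. The predominant gene is the downstream hairpin of the Mir221 and Mir222 pair and the upstream hairpin of the Mir191 and Mir425 pair. Among all 26 comparable pairs, defined below, the upstream gene was the higher one in 14.

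Summed over its genes, the Mir221 and Mir222 pair had 9670 CPM in replicate 1 and 14295 CPM in replicate 2. The Mir191 and Mir425 pair had 15839 CPM in replicate 1 and 13056 CPM in replicate 2. The Mir221 and Mir222 pair was therefore the lower one in replicate 1, at 0.611 of the other, and the higher one in replicate 2, at 1.09 times the other. Markers of endothelial and mural cells (Mir126a, Mir143 and Mir145a, 3 of 3 detected) had summed levels of 22045 CPM in replicate 1 and 16510 CPM in replicate 2. With the TMM scaling used below, the log2 ratio of replicate 1 over replicate 2 was 0.46 for Mir126a, 1.11 for Mir143 and 1.68 for Mir145a. It was 0.05 for Mir221, of the same sign, and -1.20 for Mir222, of the other sign. The part of endothelial and mural cells in the level of Mir221 and Mir222 was not tested.

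The ratio of the genes changed between the libraries in both pairs. The Mir221 over Mir222 ratio was higher in replicate 1 than in replicate 2 by 1.25 on the log2 scale (95% interval 1.21 to 1.30, counting error only), a 2.38-fold change of the ratio. The Mir191 over Mir425 ratio was higher in replicate 1 by 1.43 (1.34 to 1.52), a 2.69-fold change. In both pairs the less abundant gene took a larger share in replicate 2. Fisher's exact test, two-sided and Benjamini-Hochberg adjusted over all 26 pairs tested, gave an adjusted p of 6.6e-265 for Mir191 and Mir425 and one below 1e-300 for Mir221 and Mir222. The test called 24 of the 26 pairs, a background of 92.3%, so a call by itself does not set these pairs apart.

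The 26 pairs are all runs of exactly 2 same-strand genes with a Mir symbol, at most 10 kb apart, in which both genes were detected, out of 57 annotated runs. In 15 of them the less abundant gene had a larger share in replicate 2. The median change of the ratio was 1.89-fold. By size of change, the Mir191 and Mir425 pair ranked 3 and the Mir221 and Mir222 pair ranked 7. Both ratios thus moved by more than the median pair.

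By inequality of the genes, averaged over the libraries on the log2 scale, Mir191 and Mir425 ranked 12 of 26 with a mean ratio of 24.0, and Mir221 and Mir222 ranked 19 with a mean ratio of 3.21. The median pair had a ratio of 13.1. That median depends on which pairs are taken. It was 6.14 without genes that share 20 nt or more with another hairpin. With at least 50 counts in both libraries it was 24.0, the ratio of Mir191 and Mir425 itself. The nearest pairs above and below Mir191 and Mir425 were Mir34c over Mir34b, of multiciliated cells, at 33.2, and Mir143 over Mir145a, of smooth muscle, at 20.5. Those around Mir221 and Mir222 were Mir451a over Mir144, of red cells, at 3.81, and Mir298 over Mir296 at 3.09.

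The most unequal pairs were Mir29a over Mir29b-1 (426), Mir181b-2 over Mir181a-2 (134) and Mir181a-1 over Mir181b-1 (72.1). In each of them at least 1 gene shares 20 nt or more with another hairpin, so reads of it can be missing from its count. The most equal were Mir15b over Mir16-2 (1.03), Mir181c over Mir181d (1.05) and Mir195a over Mir497 (1.54), by the mean log2 ratio. In each of these 3 the predominant gene switched between the libraries: the ratios in replicates 1 and 2 were 0.612 and 1.72 for Mir15b over Mir16-2, 0.904 and 1.22 for Mir181c over Mir181d, and 2.49 and 0.954 for Mir195a over Mir497. In the other 23 pairs, both pairs of members included, the same gene predominated in both libraries. In 14 of the 26 pairs a gene shares such a run. Among the 12 pairs without one, a choice made after seeing the data, 25% were more unequal than Mir191 and Mir425, against 42.3% of all 26 pairs.

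**Figure D4:**
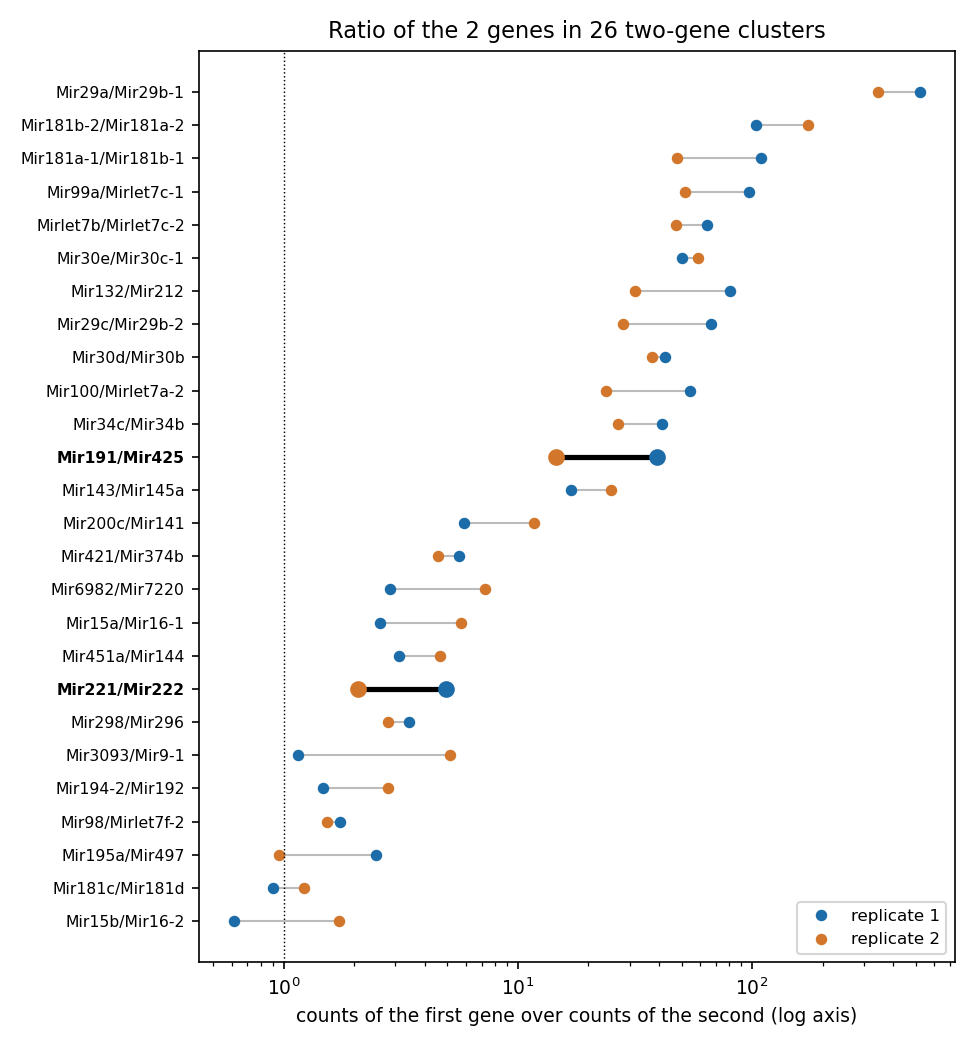
Ratio of the first to the second gene on a log axis in each of 26 two-gene clusters, in replicates 1 and 2 joined by a line and sorted by mean inequality. The ratio of Mir191 to Mir425 is 39.4 and 14.6 and that of Mir221 to Mir222 is 4.95 and 2.08, each lower in replicate 2.

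For differences of single genes between the libraries, counts were set against TMM-scaled library sizes, with the ratio given as replicate 1 over replicate 2. An exact two-sided binomial test with Benjamini-Hochberg adjustment over the 384 detected genes called 250 of them, a background of 65.1%. The calls were for a higher level in replicate 1 in 34.1% of detected genes and in replicate 2 in 31% of them. All 4 detected members were called, Mir191 and Mir221 higher in replicate 1 and Mir222 and Mir425 higher in replicate 2. At these depths a small difference passes this test, so each ratio is given with its size.

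Mir222 was 2.30-fold higher in replicate 2 (log2 ratio -1.20, adjusted p below 1e-300 by the exact binomial test). Mir425 was 1.71-fold higher in replicate 2 (log2 ratio -0.77, adjusted p = 1.0e-77, same test). Mir191 was 1.57-fold higher in replicate 1 (log2 ratio 0.65, adjusted p below 1e-300). Mir191 and Mir425 thus differed in opposite directions, and Mir221, given next, did not share the size of the Mir222 difference. A change of ratio is not particular to these pairs, since 24 of 26 pairs were called for one. The median difference over detected genes was 1.36-fold in either direction.

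Mir221 differed by 1.04-fold, with a log2 ratio of 0.05 in favour of replicate 1 (adjusted p = 3.7e-07, exact binomial test). On the CPM scale its direction flips, to a log2 ratio of -0.26, which is the direction of Mir222. The scales differ because the median gene stands at a log2 ratio of -0.31 in CPM and at 0.01 after TMM scaling, so Mir221 stayed near the median gene on both. Mir222, Mir425 and Mir191 kept their direction on the CPM scale, with log2 ratios of -1.52, -1.09 and 0.34. Of the detected genes, 37 had a larger difference than Mir222 in either direction, 95 a larger one than Mir425, 120 a larger one than Mir191 and 351 a larger one than Mir221.

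**Figure D5:**
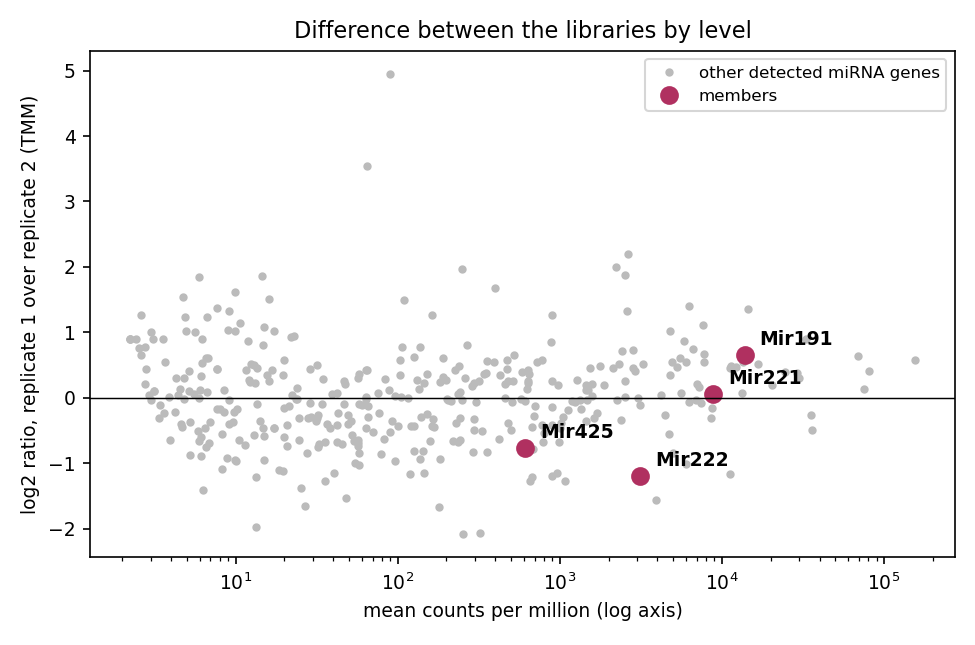
Log2 ratio of replicate 1 over replicate 2 after TMM scaling against mean CPM on a log axis, 1 point per detected gene. Mir222 (-1.20) and Mir425 (-0.77) lie below zero, Mir191 (0.65) lies above it and Mir221 (0.05) lies beside it.

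Genes with the most similar levels were found by the Euclidean distance of log2(CPM + 1) over the 2 libraries. Nearest to Mir221 were Mir328 (7256 CPM in replicate 1 and 10091 in replicate 2, distance 0.16) and Mir330 (6722 and 10354 CPM, 0.28). Nearest to Mir191 were Mir151 (14560 and 12443 CPM, 0.09) and Mir137, a neuronal microRNA (12852 and 11601 CPM, 0.28). Nearest to Mir425 were Mir381 of the imprinted chromosome 12 cluster (436 and 933 CPM, 0.22) and Mir153 (347 and 995 CPM, 0.31). Mir222 had the least close neighbours, Mir149 (1686 and 6183 CPM, 0.42) and Mir138-2 (1843 and 2900 CPM, 0.70). With 2 libraries this likeness rests on 2 values per gene. No member was nearest to the other gene of its pair, which restates their unequal levels, since the distance includes the level.

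Levels were summed over marker lists of cell types and other tissues. No list is particular to the hippocampus, so the label of a layer of it was not tested. Neuronal genes (8 of 12 detected) summed to 50948 CPM in replicate 1 and 52470 in replicate 2. Of these, Mir124a-1, Mir124a-2 and Mir124a-3 had 0 to 5 counts, and each shares 20 nt or more with another hairpin. Astrocyte genes (4 of 4) summed to 25505 and 25271 CPM and oligodendrocyte genes (2 of 3) to 6092 and 9710 CPM. The genes within these lists did not share a direction. In replicates 1 and 2, Mir338 had 3083 and 6890 CPM and Mir219a-2 had 3007 and 2815 CPM. Of the astrocyte genes, Mir21a (3475 and 1735 CPM) and Mir29c were lower in replicate 2. Mir29a (19511 and 21307 CPM) and Mir29b-1 were higher there. Leukocyte and red cell genes (5 of 5) summed to 864 and 839 CPM, the liver gene Mir122 stood at 23.9 and 47.5 CPM, and muscle genes (1 of 7) summed to 53.7 and 84.3 CPM. Of the 7 muscle genes, 5 also share such a run and had 0 or 1 count, so the muscle sum is no measure of that tissue. Other lists hold genes with such a run too: 10 of 12 neuronal, 2 of 4 astrocyte and 2 of 3 oligodendrocyte genes. Reads can therefore be missing from those sums as well. The lists differ in length, from 1 to 12 genes.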

How the data were processed

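MicroRNA-seq was available for 2 libraries of 1 group. The deposited values are unnormalized counts of reads on each microRNA gene, unstranded in one column and stranded in 2 others, below 4 summary lines. The authors made them on mm10 with GENCODE M21, per the text deposited with the tables. Neither aligner nor counter is named there or in the labels. The stranded column with the larger total was taken as sense. Summary lines entered neither library sizes nor tests. Unmapped reads were 9.53% and 14.4% of reads in replicates 1 and 2, and reads outside features 3.47% and 4.24%.

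All 2202 gene identifiers matched a symbol in GENCODE M21. TMM scaling used edgeR 4.0.16 in R 4.3.3, tests used scipy 1.17.1, and folding used RNAfold 2.7.2 with default settings. Exact binomial tests were adjusted over all detected genes and Fisher's exact tests over all 2-gene clusters, at 0.05. Both tests were run on simulated counts that held counting error only, so that run does not cover other spread between libraries. DESeq2 1.42.0 size factors, total counts, other filters, tests, strand columns, denominators and cluster distances were alternatives. No molecular identifiers are mentioned, so reads may not be independent molecules, and intervals and limits cover counting error only.

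The rule for the members, the lists and the tests were chosen with earlier results of these data known. Besides the members, the named genes are the 2 detected genes nearest to each, the 3 most equal and 3 most unequal clusters, the clusters next to each pair in that order, and the marker lists. Mirlet7e, Mir1928 and Mir489 were named after their values were seen.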

Additional observations from a re-analysis of the deposited data

How the results depend on the processing

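Most results kept their direction and their side of the threshold under the alternatives run. Exceptions follow. With unstranded counts Mir191 fell to 0 CPM and its share of the Mir191 and Mir425 pair reversed to 0%, since every read of it also lies in Gm24083. With opposite-strand counts Mir221, Mir222 and Mir425 had 0 CPM, Mir191 had 1.18 and Gm24083 had 181315, which are the reads of Mir191. Here the denominator was the smaller opposite-strand total, 287729 counts in replicate 1 and 425273 in replicate 2. Against the sense totals the same reads gave Mir191 a mean of 13833 CPM. With all reads as denominator all detected members stood lower, Mir221 at 3102 CPM, Mir222 at 1094, Mir191 at 4860 and Mir425 at 215. The larger denominator lowers the CPM of any counted gene, so this fall is not particular to the members. With total counts in place of TMM the log2 ratio of Mir221 between replicates 1 and 2 reversed to -0.26, and 271 genes were called, of which 28.0% were higher in replicate 1, against 52.4% with TMM. The share of clusters more unequal than Mir191 and Mir425 was 47.4% with at least 50 counts in both libraries, 25% without genes that share 20 nt or more with another hairpin, and 42.3 to 46.2% with 1 replicate left out; for Mir221 and Mir222 it was 57.7 to 80.8% with 1 left out. Without such genes 10 of 12 clusters were called, fewer because fewer were tested. Leaving out 1 replicate leaves no spread. No paired analysis was possible because there is 1 group. For short RNAs of Gm24083, the count of 0 in replicate 1 allows up to 3 counts, and replicate 2 had 1 read.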
